A study of Oryza sativa Japonica Group with 24 samples.

Results

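The genes described here belong to the light signalling pathway of rice and were chosen by locus. The rule itself uses no measured value, although it was set with earlier results of these data known. It names 10 loci, of which 9 were found among the 55986 loci of the count table, and the remaining PIL locus was not analysed here. They are 5 PHYTOCHROME-INTERACTING FACTOR-LIKE genes, *OsPIL11* (LOC_Os12g41650), *OsPIL12* (LOC_Os03g43810), *OsPIL13* (LOC_Os03g56950), *OsPIL14* (LOC_Os07g05010) and *OsPIL16* (LOC_Os05g04740), the 3 HY5-like genes *OsbZIP01* (LOC_Os01g07880), *OsbZIP18* (LOC_Os02g10860) and *OsbZIP48* (LOC_Os06g39960), and *OsCOP1* (LOC_Os02g53140). The gene names were taken as the rule gives them. The supplementary sheets of the study annotate the *OsPIL14* locus as a helix-loop-helix protein and the *OsbZIP18* locus as a bZIP protein.

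Wild-type plants of the *japonica* variety 9522 were grown in paddy fields. From panicle initiation on, LD plants had the natural photoperiod of about 14 h, whereas SD plants were darkened under cloth 2 h before natural dusk, so that their day was 12 h. The design text of the series calls LD 14 h of dark instead, and the day lengths in the methods of the study were followed. Anthers staged at mitosis I by their length were taken every 4 h over the day, starting at 08:00, with 2 biological replicates in each of the 12 groups and 24 libraries in all. No genotype or allele differed between the groups, which were defined by day length and time of day within 1 variety. Which plants or panicles went into a replicate is not given in the sources used here, so p-values measure the spread between these libraries.

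PIF-like proteins are basic helix-loop-helix transcription factors. In Arabidopsis, PIFs accumulate in the dark, promote elongation growth, and are bound by light-activated phytochrome and degraded. HY5 is a bZIP transcription factor that promotes light-dependent development, and COP1 is the E3 ubiquitin ligase that marks HY5 for degradation in the dark, so the transcript levels measured here are only 1 layer of a pathway that is controlled largely through its proteins. In rice, *OsPIL13* is also known as *OsPIL1* and promotes internode elongation, *OsbZIP48* is a functional counterpart of HY5, and *OsCOP1* is known from the *peter pan syndrome* mutant, whose juvenile phase is prolonged.

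Library totals were between 18043740 and 27529649 counts. Levels are given below as TMM-scaled CPM, the count per unit of library size after normalization over all 24 libraries, and levels of different genes are not compared because gene lengths were not used. Of the 12 rhythm genes that the study lists, 10 varied with time of day in SD and 10 in LD, against 34.9% and 38.4% of all genes. *OsCCA1*, a morning clock gene, was at a mean of 678 CPM in SD and 791 CPM in LD at 08:00 and of 28.8 CPM and 16.8 CPM at 20:00. The anthers of SD and LD also differed in markers of cell type. All 3 anther wall genes described next were called higher in SD, and all 6 pollen loci lower, when averaged over the day, against 6.26% and 10.1% of all genes. The study named these 3 among its genes that differ between SD and LD at each time point, and it describes *OsMATL* as up-regulated in LD. Their calls in the same libraries are therefore not independent evidence. Within time points, the 3 anther wall genes were called at each time but 16:00, and of the 6 pollen loci all were called at 08:00 and 12:00, 5 were at 20:00, 1 was at 04:00, and 0 were at 16:00 or 00:00. The summed level of *OsABCG15*, *OsLAP6* and *HTH1*, genes of the anther wall and pollen wall that the study chose on these libraries, ran from 84.7 to 1200 CPM in SD (median 427) and from 0.385 to 29.8 CPM in LD (median 6.63). Conversely, the sum of 6 pollen loci (*OsMATL*, *OsMADS68* and 4 loci annotated as pollen allergens) ran from 0.146 to 201 CPM in SD and from 209 to 1750 CPM in LD. SD libraries of the same time point could differ widely, such as 910 and 84.7 CPM of the anther wall sum at 16:00. The part of these markers in the results below was not tested, except where a value is given. In bulk anthers, fewer cells of a type and less RNA per cell cannot be told apart. Stage was set by anther length, and whether it was the same in SD and LD, or over the day, was not tested.

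**Figure D1:**
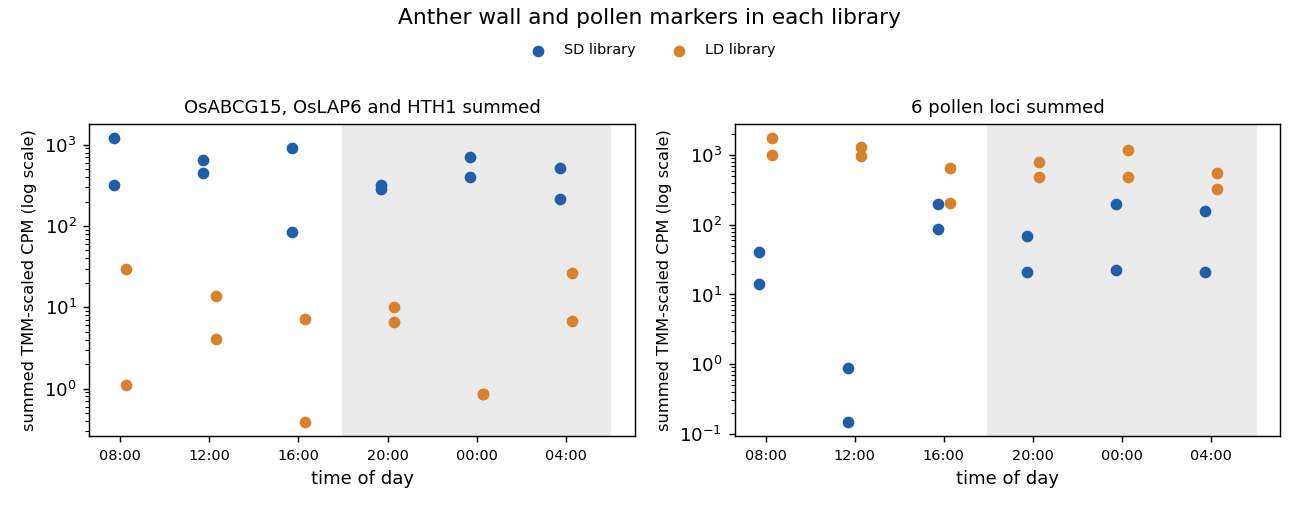
Summed TMM-scaled CPM (log scale) of 3 anther wall genes (left) and 6 pollen loci (right) in each of the 24 libraries by time of day, with shading over the 3 time points counted as dark. The anther wall sum is at or above 84.7 CPM in each SD library and at or below 29.8 CPM in each LD library, and the pollen sum is at or below 201 CPM in SD and at or above 209 CPM in LD.

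The first question was whether the members differed between SD and LD at a given time of day. Differences were called within a time point by edgeR's quasi-likelihood test at an adjusted p below 0.05 with at least a 2-fold change (log2 fold change of 1 or more either way), with positive values for genes higher in SD. At 08:00, 3 of the 9 members were called, all lower in SD (*OsPIL12*, *OsPIL13* and *OsbZIP48*), where 10.4% of all genes tested were called lower. At 12:00 the direction was the opposite, and *OsPIL11* and *OsPIL14* were called, both higher in SD, against 20.4% of all genes. At 04:00, 4 members were called, all lower in SD (*OsPIL11*, *OsPIL12*, *OsPIL13* and *OsbZIP48*), against 11.8% of all genes. At 20:00 and 00:00 no member was called, with 4.99% and 1.56% of all genes called, and DESeq2 called 0 and 1 member. Without adjustment, 3 of the 9 members had a p below 0.05 at 20:00 and 2 at 00:00. So did 6631 of 23487 genes at 20:00 and 4610 of 23375 at 00:00. At 16:00, 0% of all genes were called by edgeR, with a smallest adjusted p of 0.0624, and no member was called by DESeq2. The study, with DESeq2 at the same thresholds, did report called genes at 16:00, fewer than at any other time point. The anther wall sum at 16:00 was 84.7 and 910 CPM in SD and 0.385 and 7.17 CPM in LD. A lack of calls at 16:00 therefore does not mean that SD and LD were alike. An unadjusted p below 0.05 was found there for 3 members and for 7275 of 23466 genes.

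**Figure D2:**
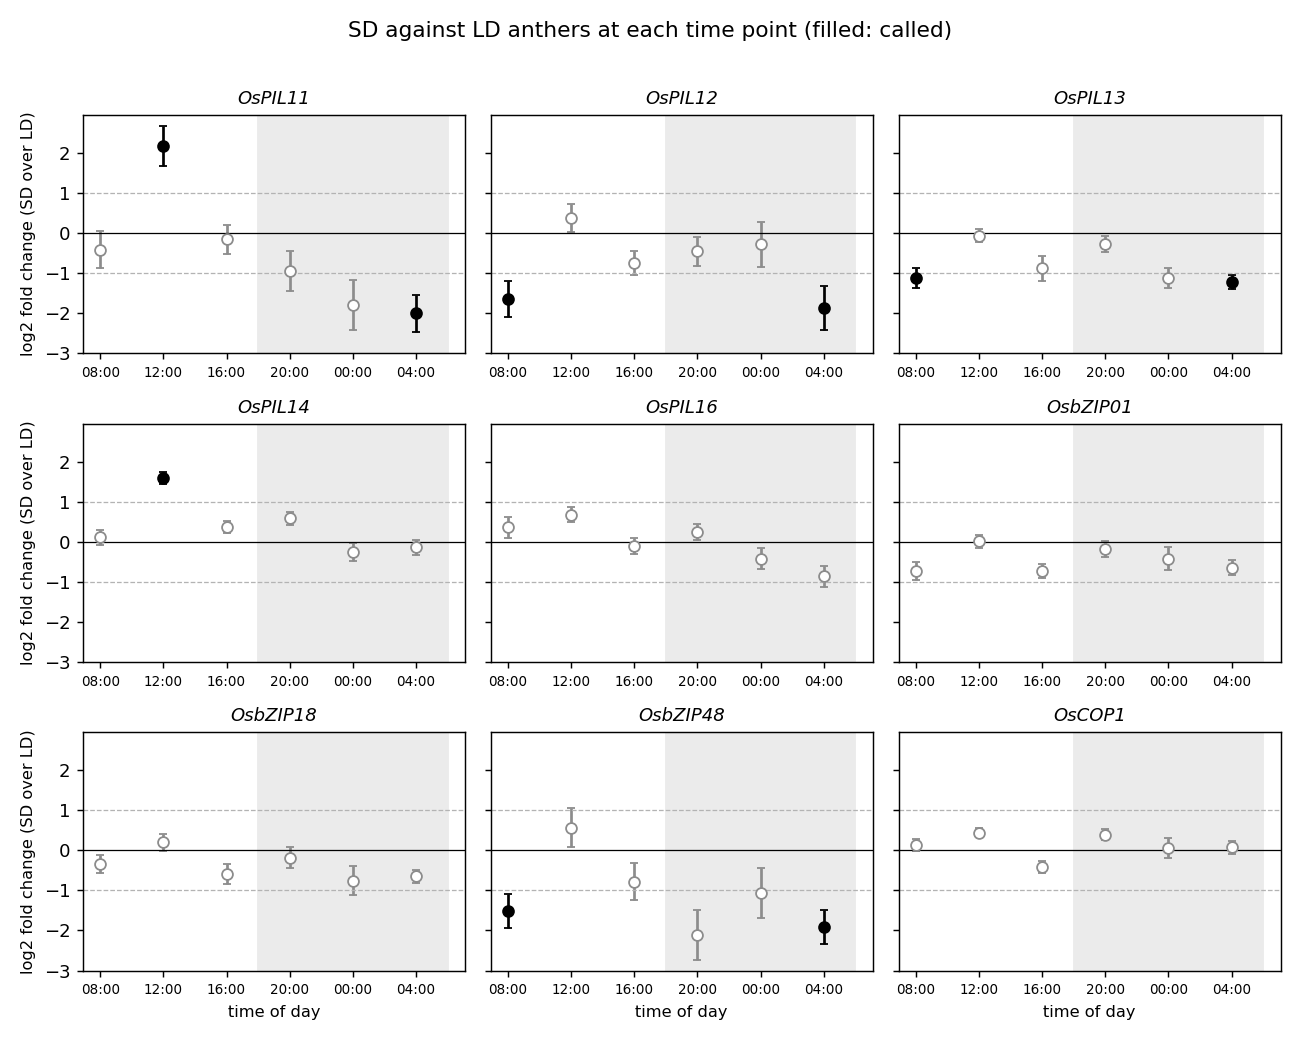
Log2 fold change of SD over LD for each of the 9 genes at each time point, with bars of 1 standard error, filled points for called differences and dashed lines at a log2 fold change of 1 and −1. Shading covers the 3 time points counted as dark. The filled points lie below 0 at 08:00 and 04:00 and above 0 at 12:00.

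*OsPIL14* showed the difference with the smallest adjusted p among the members at a single time point. In SD it was at 22.7 and 21.1 CPM at 08:00, 22.8 and 21.0 CPM at 12:00, 25.1 and 27.2 CPM at 16:00, 25.6 and 30.4 CPM at 20:00, 20.8 and 20.7 CPM at 00:00, and 18.9 and 26.1 CPM at 04:00. In LD it was at 22.0 and 18.8 CPM at 08:00, 7.87 and 7.10 CPM at 12:00, 22.2 and 18.2 CPM at 16:00, 18.8 and 18.1 CPM at 20:00, 27.0 and 23.0 CPM at 00:00, and 26.0 and 22.7 CPM at 04:00. Only the 2 LD libraries of 12:00 stood apart, at less than the level of any other library, which had 18.1 CPM or more. At 12:00 *OsPIL14* was therefore 3.02-fold higher in SD (log2 fold change 1.60, standard error (SE) 0.15, edgeR adjusted p = 0.000262), and at the other 5 time points it was not called, with log2 fold changes between −0.25 and 0.59.

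The low value of *OsPIL14* in LD at 12:00 was reached and left within the neighbouring samplings. In LD anthers it fell by 1.45 on the log2 scale from 08:00 to 12:00 (SE 0.17, adjusted p = 6.11e-05) and rose by 1.43 from 12:00 to 16:00 (SE 0.17, adjusted p = 3.75e-05). The pollen sum in LD was 1020 and 1750 CPM at 08:00, 975 and 1310 CPM at 12:00, and 209 and 665 CPM at 16:00, so it overlapped between 08:00 and 12:00 and was lower, without overlap, at 16:00. Within the 12 LD libraries *OsPIL14* ran against each of the 6 pollen loci (r between −0.42 and −0.62), and the part of these markers in its steps was not tested. In SD anthers, neither of these steps was called. The difference between SD and LD changed with time of day (interaction adjusted p = 0.000311). Each of these *OsPIL14* calls was kept with each library left out in turn.

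*OsPIL11* was also low in LD anthers at 12:00, and it was high there late at night. It had few reads, between 4 and 82 per library. In SD it was at 2.08 and 0.966 CPM at 08:00, 1.59 and 1.56 CPM at 12:00, 1.41 and 1.05 CPM at 16:00, 0.653 and 1.26 CPM at 20:00, 0.444 and 1.51 CPM at 00:00, and 1.24 and 0.457 CPM at 04:00. In LD it was at 2.30 and 1.85 CPM at 08:00, 0.506 and 0.209 CPM at 12:00 (9 and 4 counts), 1.50 and 1.25 CPM at 16:00, 2.32 and 1.42 CPM at 20:00, 2.49 and 4.43 CPM at 00:00, and 3.32 and 3.69 CPM at 04:00. The SD and LD libraries did not overlap at 12:00, 20:00, 00:00 and 04:00, and the LD libraries were the lower ones at 12:00 and the higher ones at the other 3 time points.

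At 12:00 *OsPIL11* was 4.54-fold higher in SD (log2 fold change 2.18, SE 0.50, edgeR adjusted p = 0.00954), and at 04:00 it was 4.02-fold lower in SD (log2 fold change −2.01, SE 0.46, adjusted p = 0.0251). In LD it fell by 2.54 on the log2 scale from 08:00 to 12:00 (SE 0.65, adjusted p = 0.0182) and rose by 1.95 by 16:00 (SE 0.66, adjusted p = 0.0447). Its difference between SD and LD changed with time of day (interaction adjusted p = 0.0106), and this test was passed with each library left out. The single comparisons were less firm. The adjusted p at 12:00 was 0.0634 and 0.0627 without the first or the second SD library, and at 04:00 it was 0.124 and 0.129 without the first or the second LD library, with log2 fold changes close to those above. At 00:00, where the log2 fold change was −1.80 (SE 0.62) and no call was made (adjusted p = 0.186), the gene was called without SD replicate 2 (adjusted p = 0.0238) or LD replicate 1 (adjusted p = 0.0273), with the replicate number as a block (log2 fold change −1.92, adjusted p = 0.00208), and in one fit of the 24 libraries (0.0367).

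**Figure D3:**
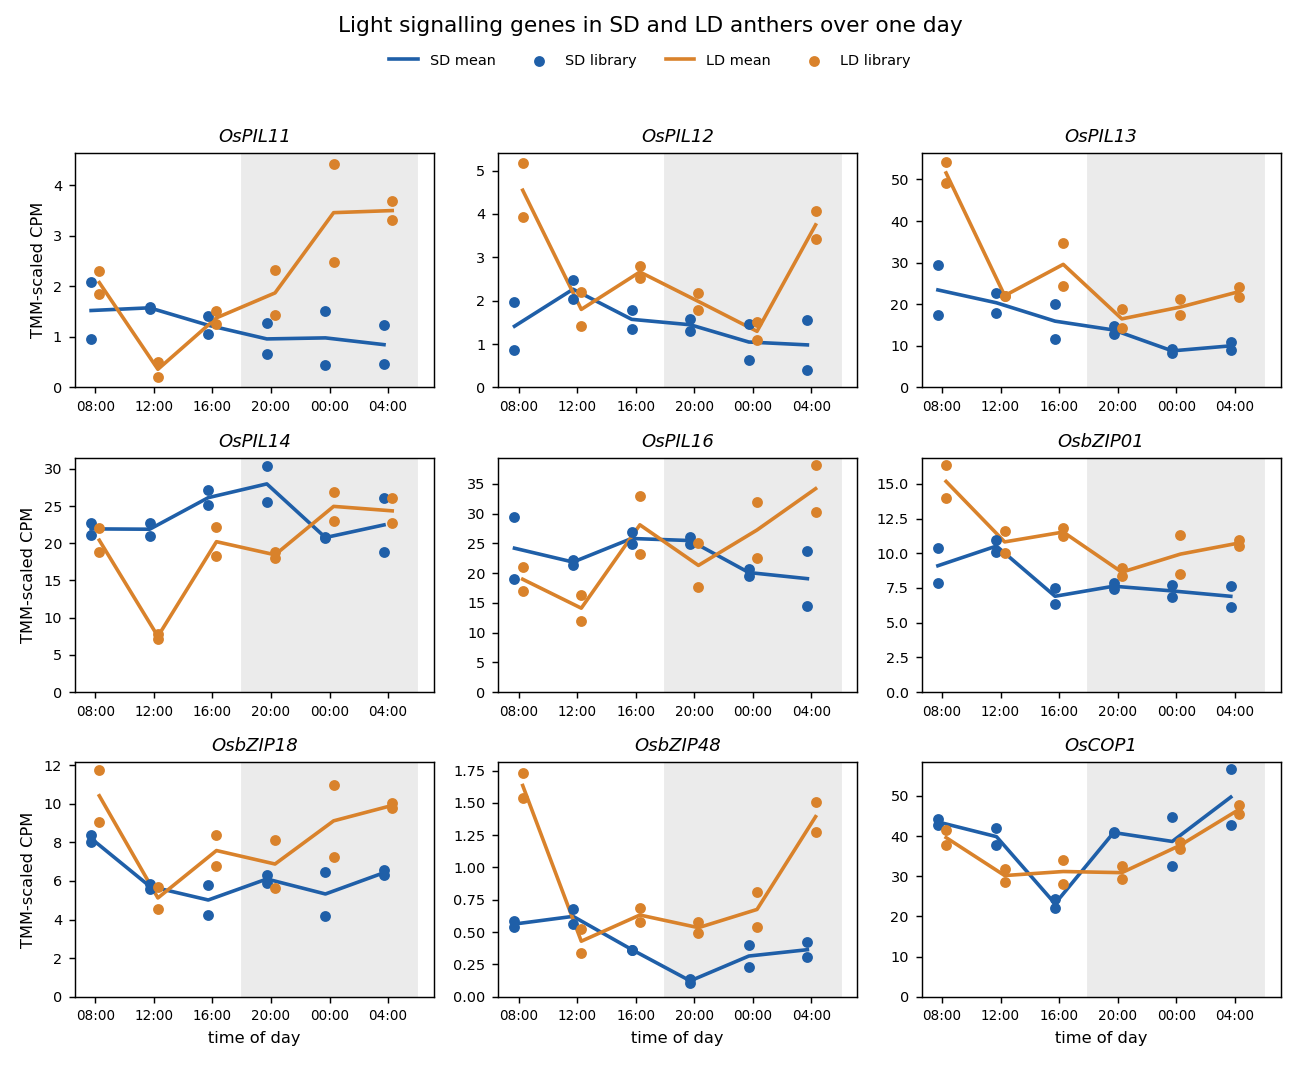
TMM-scaled CPM of the 9 genes by time of day in SD (blue) and LD (orange) anthers, with points for the 24 libraries, lines through the means of the 2 replicates, and shading over the 3 time points counted as dark. The means of *OsPIL14* and *OsPIL11* are lowest in LD at 12:00 (libraries at 7.87 and 7.10 CPM, and at 0.506 and 0.209 CPM), and the means of *OsPIL13*, *OsPIL12* and *OsbZIP48* are highest in LD at 08:00.

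*OsPIL13*, the elongation-promoting *OsPIL1*, was highest in the morning and lower in SD than in LD at 08:00 and 04:00. In SD it was at 29.5 and 17.3 CPM at 08:00, 17.9 and 22.8 CPM at 12:00, 11.7 and 20.1 CPM at 16:00, 12.8 and 14.8 CPM at 20:00, 8.22 and 9.32 CPM at 00:00, and 10.9 and 9.03 CPM at 04:00. In LD it was at 49.0 and 54.1 CPM at 08:00, 22.0 and 22.1 CPM at 12:00, 24.4 and 34.7 CPM at 16:00, 14.2 and 18.7 CPM at 20:00, 21.2 and 17.4 CPM at 00:00, and 21.8 and 24.2 CPM at 04:00. The libraries of SD and LD overlapped at 12:00 and 20:00, and at the other 4 time points both LD libraries were the higher ones. *OsPIL13* was called at 08:00 (log2 fold change −1.13, SE 0.26, edgeR adjusted p = 0.0215) and at 04:00 (log2 fold change −1.22, SE 0.17, adjusted p = 0.00664).

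From 04:00 to 08:00 *OsPIL13* rose in both photoperiods, by 1.23 on the log2 scale in SD (SE 0.27, adjusted p = 0.0296) and by 1.16 in LD (SE 0.27, adjusted p = 0.0119). In the step from 08:00 to 12:00 it then fell by 1.23 in LD (SE 0.27, adjusted p = 0.00662), while the step in SD was not called. The test that its difference between SD and LD changed with time of day gave an adjusted p of 0.0612, and it passed with DESeq2 (0.0182), with library totals (0.0312), with every gene with at least 1 count kept (0.000427), and without either SD library of 08:00 or 16:00 or LD 16:00 replicate 1 (0.0181 to 0.0459). Averaged over the day it was lower in SD by 0.79 on the log2 scale (SE 0.11, adjusted p = 1.45e-05), under 2-fold. The call at 08:00 was lost under scaling by library totals (log2 fold change −0.997) and without SD replicate 2, LD replicate 1 or LD replicate 2 (adjusted p = 0.0155, 0.0691 and 0.121, the first with a log2 fold change of −0.79). The call at 04:00 was lost without either LD library (adjusted p = 0.0574 and 0.0606), the rise in SD without SD 08:00 replicate 1, either SD 04:00 library or LD 04:00 replicate 2 (up to 0.256), the rise in LD without LD 08:00 replicate 2 or either LD 04:00 library (up to 0.141), and the fall in LD without LD 12:00 replicate 2 (0.0561). At 00:00 its log2 fold change was −1.12 (SE 0.26, adjusted p = 0.0808), and it was called without SD replicate 2 (adjusted p = 0.0222), by DESeq2 (0.00758), with the replicate block (0.00357) and in one fit of the 24 libraries (0.0124).

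*OsPIL12*, a further PIF-like gene with 8 to 101 reads per library, had its highest mean at the same time of day as *OsPIL13* in LD. It was at 5.17 and 3.92 CPM in LD and 1.96 and 0.859 CPM in SD at 08:00, and at 3.42 and 4.08 CPM in LD and 1.55 and 0.406 CPM in SD at 04:00. At the other 4 time points it lay between 1.08 and 2.79 CPM in LD and between 0.622 and 2.48 CPM in SD, and the libraries of SD and LD overlapped at 12:00 and 00:00. It was 3.14-fold lower in SD at 08:00 (log2 fold change −1.65, SE 0.44, edgeR adjusted p = 0.0352) and 3.69-fold lower at 04:00 (log2 fold change −1.88, SE 0.55, adjusted p = 0.0472). Neither call was kept without an LD library of its time point (adjusted p = 0.169 and 0.113 at 08:00, and 0.166 and 0.195 at 04:00), and the call at 04:00 was also lost with the replicate number as a block (adjusted p = 0.0712) and with library totals (0.0584). The change of its difference with time of day had an adjusted p of 0.0783 and passed with DESeq2 (0.0303), with every gene with at least 1 count kept (0.00371), and without replicate 1 of SD at 08:00, 00:00 or 04:00 (0.0138 to 0.0407). Without SD replicate 1 of 04:00, the higher of the 2 SD libraries there, the difference averaged over the day reached a log2 fold change of −1.003 (adjusted p = 0.000323), against −0.79 with all libraries (SE 0.20, adjusted p = 0.00325).

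*OsPIL16* was the PIL gene with no called difference between SD and LD. Its level was between 14.5 and 29.4 CPM in SD (median 23.0, n = 12) and between 11.9 and 38.1 CPM in LD (median 22.9, n = 12). At 12:00 it was at 21.4 and 22.3 CPM in SD and 16.3 and 11.9 CPM in LD, and at 04:00 at 14.5 and 23.6 CPM in SD and 38.1 and 30.3 CPM in LD. The libraries did not overlap at either time, and the order of SD and LD was reversed between them. Both differences passed the adjusted p without reaching 2-fold, with a log2 fold change of 0.68 at 12:00 (SE 0.18, edgeR adjusted p = 0.0181) and of −0.87 at 04:00 (SE 0.25, adjusted p = 0.0465). The change of the difference with time of day had an adjusted p of 0.0329, which rose to at most 0.0852 without either SD library or LD replicate 2 of 12:00, or without replicate 1 of either photoperiod at 04:00. Without SD 04:00 replicate 2 the difference at 04:00 was called (log2 fold change −1.24, adjusted p = 0.00018). In LD, the rise from 12:00 to 16:00 was 0.997 on the log2 scale (SE 0.28, adjusted p = 0.0173), just under the 2-fold threshold, and it passed in 27 of 31 other settings. Within the 12 LD libraries *OsPIL16* ran against each of the 6 pollen loci, with r = −0.95 for *OsMADS68*, −0.79 for *OsMATL* and −0.74 to −0.87 for the pollen allergen loci, and within SD r was between −0.32 and 0.10. The part of these markers in its pattern was not tested.

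Among the HY5-like genes, *OsbZIP48* was the only 1 with called differences, and its counts were the lowest of all members, between 3 and 30 per library. In SD it was at 0.588 and 0.537 CPM at 08:00, 0.563 and 0.681 CPM at 12:00, 0.365 CPM in both libraries at 16:00, 0.140 and 0.105 CPM at 20:00 (3 counts each), 0.400 and 0.230 CPM at 00:00, and 0.423 and 0.304 CPM at 04:00. In LD it was at 1.54 and 1.73 CPM at 08:00, 0.337 and 0.522 CPM at 12:00, 0.687 and 0.577 CPM at 16:00, 0.490 and 0.579 CPM at 20:00, 0.810 and 0.540 CPM at 00:00, and 1.51 and 1.28 CPM at 04:00. The LD libraries were the higher ones at each time point but 12:00, where they were the lower ones, and SD and LD libraries overlapped at none.

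*OsbZIP48* was 2.86-fold lower in SD at 08:00 (log2 fold change −1.51, SE 0.43, edgeR adjusted p = 0.0428) and 3.76-fold lower at 04:00 (log2 fold change −1.91, SE 0.42, adjusted p = 0.0214). Averaged over the day it was the only member called, 2.21-fold lower in SD (log2 fold change −1.14, SE 0.17, adjusted p = 2.40e-05), where 10.1% of all genes were called lower. In LD it fell by 1.91 on the log2 scale from 08:00 to 12:00 (SE 0.38, adjusted p = 0.00389). The call at 08:00 was easily lost, since DESeq2 (adjusted p = 0.0765), library totals (0.0548), the replicate block (0.107) and leaving out any of the 4 libraries (0.0821 to 0.272) ended it. At 04:00 it was lost without SD replicate 2 (0.055) or either LD library (0.164 and 0.116), and the fall in LD without LD 12:00 replicate 1 (0.0525). At 20:00 its log2 fold change was −2.11 (SE 0.63, adjusted p = 0.0951), and it was called in one fit of the 24 libraries (0.0194).

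*OsbZIP01* and *OsbZIP18* differed by less than 2-fold between SD and LD at each time point. *OsbZIP01* was between 6.14 and 10.9 CPM in SD (median 7.70, n = 12) and between 8.33 and 16.4 CPM in LD (median 11.1, n = 12), with its highest LD level at 08:00 (16.4 and 14.0 CPM, against 7.84 and 10.4 CPM in SD). Both LD libraries were the higher ones at each time point but 12:00, where the libraries overlapped. Within the 12 SD libraries *OsbZIP01* ran against each of the pollen loci (r between −0.40 and −0.72), and within LD r was between −0.06 and 0.25. The part of these markers in its pattern was not tested, and such correlations are not given here for every member. *OsbZIP18* was between 4.18 and 8.37 CPM in SD (median 6.10, n = 12) and between 4.55 and 11.8 CPM in LD (median 8.26, n = 12). Averaged over the day, *OsbZIP01* was 1.38-fold lower in SD (log2 fold change −0.46, SE 0.08, edgeR adjusted p = 6.75e-05) and *OsbZIP18* 1.31-fold lower (log2 fold change −0.39, SE 0.11, adjusted p = 0.00442). Without a fold threshold both also passed at 04:00, with log2 fold changes of −0.65 and −0.64 (adjusted p = 0.0446 and 0.0336). In LD anthers *OsbZIP18* fell by 1.02 on the log2 scale from 08:00 to 12:00 (SE 0.26, adjusted p = 0.0166), a call lost without LD 08:00 replicate 1 or either LD library of 12:00 (adjusted p up to 0.152).

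*OsCOP1*, the ubiquitin ligase gene, was highest at 04:00 in both photoperiods and had a low point in SD at 16:00. In SD it was at 42.7 and 44.3 CPM at 08:00, 42.0 and 37.6 CPM at 12:00, 22.0 and 24.4 CPM at 16:00, 40.7 and 41.0 CPM at 20:00, 44.8 and 32.5 CPM at 00:00, and 56.6 and 42.8 CPM at 04:00. In LD it was at 41.5 and 37.8 CPM at 08:00, 28.5 and 31.8 CPM at 12:00, 28.2 and 34.1 CPM at 16:00, 29.3 and 32.5 CPM at 20:00, 38.6 and 36.9 CPM at 00:00, and 47.8 and 45.4 CPM at 04:00. The SD libraries of 16:00 were below all other SD libraries. Their anther wall sums were 910 and 84.7 CPM, and the pollen sum in SD was 0.146 and 0.891 CPM at 12:00, 86.2 and 199 CPM at 16:00, and 21.2 and 69.6 CPM at 20:00, with 5 of the 6 pollen loci called higher from 12:00 to 16:00. The part of these markers in the low point was not tested. In SD *OsCOP1* fell by 0.78 on the log2 scale from 12:00 to 16:00 (SE 0.16, edgeR adjusted p = 0.00333) and rose by 0.82 from 16:00 to 20:00 (SE 0.16, adjusted p = 0.0185), both under 2-fold, with adjusted p up to 0.034 and 0.144 when a library was left out.

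No difference of *OsCOP1* between SD and LD reached 2-fold. It was higher in SD at 12:00 (log2 fold change 0.45, SE 0.12, adjusted p = 0.0156), and its log2 fold change was −0.42 at 16:00 (SE 0.15, adjusted p = 0.141) and 0.39 at 20:00 (SE 0.14, adjusted p = 0.135), with no overlap of SD and LD libraries at these 3 time points. The change of the difference with time of day passed narrowly (interaction adjusted p = 0.0468) and did not pass with the replicate block (0.0556), with every gene with at least 1 count kept (0.0734), or with any library of 12:00, either SD library of 16:00, either LD library of 04:00, SD 20:00 replicate 2, LD 16:00 replicate 2 or LD 20:00 replicate 1 left out (up to 0.128). Averaged over the day its log2 fold change was 0.11 (SE 0.07, adjusted p = 0.172).

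The number of members whose libraries of SD and LD did not overlap says little on its own, since this held for 69% of all genes tested at 08:00, 83.5% at 12:00, 63.9% at 16:00, 62.4% at 20:00, 53.8% at 00:00 and 72% at 04:00. Averaged over the day without a fold threshold, 5 members were lower and 1 (*OsPIL14*, log2 fold change 0.37, SE 0.07, adjusted p = 0.00016) was higher in SD, where 29.3% and 29% of all genes were lower and higher. The median log2 fold change of the members was −0.46, against 0.0049 of all genes. The differences under 2-fold at 12:00 and 04:00 (*OsPIL16*, *OsCOP1*, *OsbZIP01* and *OsbZIP18*) each had an adjusted p above 0.05 with at least 1 library left out (at most 0.243). The interaction of photoperiod and time of day had an adjusted p below 0.05 for 5 of the 9 members (*OsPIL11*, *OsPIL14*, *OsPIL16*, *OsbZIP48* and *OsCOP1*) and for 48.5% of all genes. With library totals *OsbZIP01* passed it as well (0.0375, against 0.102).

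The second question was how the members changed over the day within each photoperiod. In LD all 9 members varied with time of day (edgeR F-test over the 6 time points, adjusted p between 2.62e-05 for *OsPIL14* and 0.0421 for *OsPIL12*), where 38.4% of all genes did. Among these 9 calls that of *OsPIL12* was lost in the most settings, without any of the 12 LD libraries or 6 of the SD libraries (both replicates of 12:00, 16:00 and 20:00) and with the replicate block (adjusted p = 0.0529). *OsPIL13*, *OsPIL14* and *OsbZIP48* kept theirs with each library left out. The call was lost for *OsPIL11* without LD 12:00 replicate 2 (0.0666), for *OsPIL16* without that library or LD 04:00 replicate 1 (up to 0.0741), for *OsCOP1* without either LD 04:00 library (up to 0.1), for *OsbZIP18* without LD 08:00 replicate 1 or any LD library of 12:00 or 04:00 (up to 0.168) and with only the LD libraries fitted (0.0518), and for *OsbZIP01* without either LD library of 08:00 or 20:00, LD 12:00 replicate 1, LD 04:00 replicate 2 or SD 16:00 replicate 1 (up to 0.179), with library totals (0.0603) and with every gene with at least 1 count kept (0.187). In SD the test was passed by 3 members, *OsPIL13* (adjusted p = 0.00451), *OsbZIP48* (0.014) and *OsCOP1* (0.00246), where 34.9% of all genes passed. *OsbZIP48* did not pass in SD when only the 12 SD libraries were fitted (adjusted p = 0.101), when every gene with at least 1 count was kept (0.182), or without SD 12:00 replicate 2 or SD 20:00 replicate 2 (up to 0.0785). *OsbZIP01*, with an adjusted p of 0.056 in SD, passed there in 8 other settings, among them DESeq2 (0.0227), RLE size factors (0.0429) and library totals (0.0444). The number of members passing was not compared between SD and LD other than by the interaction above.

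The order of the time points also differed from member to member. In LD, 8 of the 9 members had their highest mean at 04:00 or 08:00, as did 37.4% of all genes, and 6 had their lowest mean at 12:00, as did 26% of all genes. In SD, 3 members had their highest mean at 04:00 or 08:00 (31.8% of all genes) and none had its lowest mean at 12:00 (29.3% of all genes). There, 4 members had their highest mean at 12:00 (27.1% of all genes) and 4 their lowest at 04:00 (21.5% of all genes). These time points were picked from the same means, so the shares describe the pattern and do not test it. The highest mean was 1.35 to 5.07 times the lowest in SD and 1.55 to 9.80 times in LD. Most neighbours in these orders could not be separated, and for *OsPIL14* in LD, for example, 3 of the 5 neighbouring pairs of time points overlapped, while 12:00 lay below 20:00 without overlap.

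**Figure D4:**
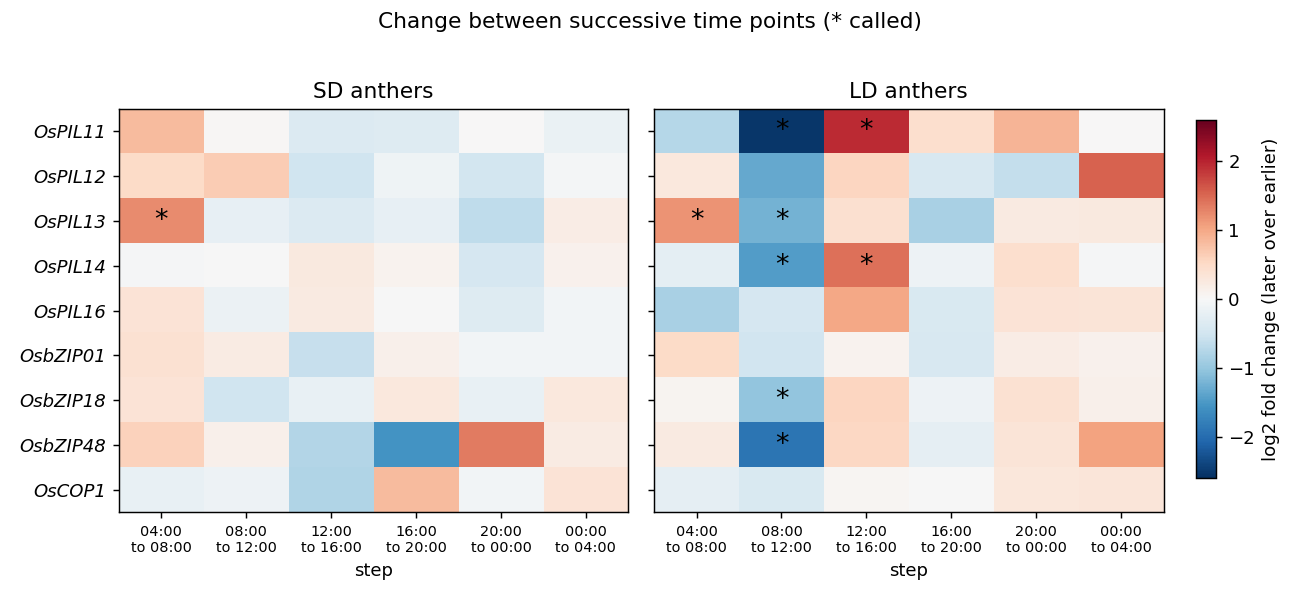
Log2 fold change of the 9 genes (rows) between successive time points (columns) in SD (left) and LD (right) anthers, in colour from blue (lower at the later time) to red (higher at the later time), with stars for called steps. The stars stand at 1 SD step, from 04:00 to 08:00 for *OsPIL13*, and at 8 LD steps, of which 5 are falls from 08:00 to 12:00.

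Steps between successive time points were called 9 times, and 8 of these were in LD. Over the 12 steps, 4.28% of the tests of all genes were called. Of the 9 members, 5 fell in LD from 08:00 to 12:00 (*OsPIL11*, *OsPIL13*, *OsPIL14*, *OsbZIP18* and *OsbZIP48*), where 3.49% of all genes were called lower, and 2 rose from 12:00 to 16:00 (*OsPIL11* and *OsPIL14*), where 6.64% of all genes were called higher. *OsPIL13* rose in both photoperiods from 04:00 to 08:00, against 1.06% of all genes in SD and 2.46% in LD. The LD libraries of 12:00 enter both the falls and the rises, and the comparison of SD with LD at 12:00, so these results are not separate pieces of evidence. The rise of *OsPIL11* from 12:00 to 16:00 was lost with the replicate block (adjusted p = 0.0519) and without any library of 12:00 or 16:00, LD 08:00 replicate 1 or either LD library of 04:00 (up to 0.259), and its fall without LD 08:00 replicate 1 or LD 12:00 replicate 2 (up to 0.171).

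Light was compared with dark as the mean of 08:00, 12:00 and 16:00 against the mean of 20:00, 00:00 and 04:00. Without a fold threshold 3 members passed in SD and 5 in LD, where 29.4% and 23.5% of all genes did. In SD, *OsbZIP48* was the only member called, 2.06-fold higher in the light (log2 fold change 1.04, SE 0.25, edgeR adjusted p = 0.00647), where 3.38% of all genes were called higher, and the value was 0.93 to 0.99, under 2-fold, without replicate 2 of 12:00, 20:00, 00:00 or 04:00. In LD, *OsPIL11* was the only member called, 2.80-fold lower in the light (log2 fold change −1.49, SE 0.33, adjusted p = 0.00497), where 2.72% of all genes were called lower. Its low LD mean at 12:00 (0.3572 CPM) enters this contrast, and its mean at 08:00 (2.075 CPM) was above that at 20:00 (1.87 CPM). *OsPIL13* was higher in the light in both, with log2 fold changes of 0.88 in SD (SE 0.16, adjusted p = 0.000911) and 0.73 in LD (SE 0.15, adjusted p = 0.00311). *OsPIL14* was lower in the light in LD (log2 fold change −0.62, SE 0.09, adjusted p = 0.000292), and its value in SD was −0.02 (SE 0.09, adjusted p = 0.906). The LD libraries of 12:00 weigh most in this LD value. The LD means of *OsPIL14* were 20.41 CPM at 08:00, 7.481 CPM at 12:00 and 20.22 CPM at 16:00. In the dark they were 18.46 CPM at 20:00, 24.97 CPM at 00:00 and 24.37 CPM at 04:00. *OsCOP1* was lower in the light in SD by 0.32 on the log2 scale (SE 0.09, adjusted p = 0.0163), and its value in LD was −0.18 (SE 0.09, adjusted p = 0.165).

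The members were set beside the 12 rhythm genes and the phytochrome A gene *PHYA*, which encodes a far-red light receptor. *PHYA* is the only photoreceptor locus that the sources used here annotate, so its values do not stand for the photoreceptors as a group. The study also names the photoreceptors *PHYB* and *PHYC*, in a module that it describes as up-regulated in SD. Their values are not given here. Of the 12 rhythm genes, 3 were called at 08:00 (2 higher and 1 lower in SD), where 17.7% of all genes were called. The 12:00 comparison gave 4 (3 higher and 1 lower), where 40% of all genes were called. None was called at 16:00, where 0% of all genes were. Both 20:00 and 00:00 gave 2, all higher, against 4.99% and 1.56% of all genes. The 04:00 comparison gave 6 (4 higher and 2 lower), against 15.9% of all genes. The interaction test was passed by 10 rhythm genes and by 48.5% of all genes. At 12:00, *OsCCA1* was at 442 and 465 CPM in SD and 78.2 and 86.8 CPM in LD (log2 fold change 2.51, SE 0.13, edgeR adjusted p = 2.98e-05), and *OsPRR95*, a pseudo-response regulator of the clock, at 274 and 249 CPM in SD and 55.7 and 76.2 CPM in LD (log2 fold change 2.04, SE 0.18, adjusted p = 0.000175). *PHYA* was at 99.0 and 95.8 CPM in SD and 65.9 and 71.8 CPM in LD at 12:00 (log2 fold change 0.55, SE 0.10, adjusted p = 0.00398). At 04:00 its mean was 123 CPM in SD anthers against 209 CPM in LD anthers (log2 fold change −0.78, SE 0.15, adjusted p = 0.0155). Over the whole day *PHYA* was lower in SD by 0.38 on the log2 scale (SE 0.08, adjusted p = 0.000512). Its interaction of photoperiod and time of day had an adjusted p of 0.00326. These genes and the members at 12:00 differed in the same 4 libraries, in which the pollen sum was 0.146 and 0.891 CPM in SD and 975 and 1310 CPM in LD, with 3 of the 6 pollen loci at 0 in SD, and the anther wall sum 448 to 643 CPM in SD and 4.07 to 13.9 CPM in LD.

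Likeness of patterns was described by Pearson correlation of log2(CPM + 0.5) over the 24 libraries, which share depth and scaling, with no test. Among the members, *OsPIL13* and *OsbZIP01* were the most alike (r = 0.83, with 0.55 within SD and 0.89 within LD), followed by *OsPIL12* and *OsPIL13* (r = 0.80, with 0.67 and 0.73). *OsPIL14* and *OsPIL16* had r = 0.71 (0.70 within SD and 0.81 within LD), and *OsPIL14* was the least like *OsbZIP01* (r = −0.28). *OsCOP1* was more like the morning gene *OsCCA1* (r = 0.66, with 0.55 within SD and 0.85 within LD) than *OsPIL14* was (r = 0.09, with −0.56 and 0.20), and *OsbZIP48* had r = 0.79 within SD and 0.81 within LD with *OsCCA1*. Out of 25497 other genes, the most like *OsPIL14* were LOC_Os03g46260, annotated as a DUF581 domain protein (r = 0.92, with 0.53 within SD and 0.97 within LD), and LOC_Os06g49970, annotated as an alpha-amylase precursor (r = 0.91, with 0.54 and 0.97). The gene most like *OsPIL16* was LOC_Os06g48330, annotated as ATEXO70G1 (r = 0.87), the second most like *OsbZIP01* was LOC_Os08g33420, an agenet domain protein (r = 0.86), and the one most like *OsbZIP18* was LOC_Os05g01530, an expressed protein (r = 0.90). The remaining nearest genes, with r between 0.82 and 0.91, have no annotation in the sources used here.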

How the data were processed

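RNA from rice anthers was sequenced by Ion Proton. Reads with many low-quality bases were removed by the authors, who mapped the rest with MapSplice to the MSU Nipponbare genome, and deposited whole-number read counts per locus without normalization. The counting tool, its use of strand and its handling of reads that fit several loci are not given in the sources used here, so values of close family members carry that uncertainty.

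Each time point's 4 libraries were fitted on their own with edgeR 4.0.16 in R 4.3.3 (filterByExpr, TMM, quasi-likelihood F-test, Benjamini-Hochberg adjustment over all genes tested). One fit of the 24 libraries in 12 groups gave the averaged difference, the interaction, time of day, light against dark, and steps. Calls required an adjusted p below 0.05 and, except for tests over several time points, a 2-fold difference (log2 fold change of 1 or more either way). Standard errors are implied by the test, as the size of the log2 fold change over the root of F. The tests of SD against LD, time of day and the interaction were checked on simulated counts. The simulation gave all genes the same spread and changed only genes above a minimum count. It therefore does not cover genes with counts as low as those of *OsbZIP48*.

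The members and gene lists were chosen with earlier results of these data known. The text names all members found, *OsCCA1*, *OsPRR95* and *PHYA*, and the annotated ones among the 2 genes most like each member. Alternatives were DESeq2 1.42.0, which the authors used, RLE size factors, library totals, other filters on low counts, one fit of 24 libraries at each time point, the replicate number as a block, no fold threshold, only the libraries of 1 photoperiod, an offset of 1 in correlations, and leaving out each library. A crossed block was added after seeing the data. Figures were drawn with matplotlib.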

Additional observations from a re-analysis of the deposited data

Results flagged for a closer look

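The difference between SD and LD changed with time of day for 5 of the 9 genes by the interaction test over the 24 libraries (edgeR's quasi-likelihood F-test). The adjusted p was 0.0106 for *OsPIL11*, whose log2 fold change was 2.18 at 12:00 and −2.01 at 04:00, and 0.000311 for *OsPIL14*, with 1.60 at 12:00 and −0.25 at 00:00. It was 0.0329 for *OsPIL16*, with 0.68 at 12:00 and −0.87 at 04:00, and 0.0141 for *OsbZIP48*, with 0.57 at 12:00 and −1.91 at 04:00. For *OsCOP1* it was 0.0468, with 0.45 at 12:00 and −0.42 at 16:00. *OsbZIP48* did not pass with DESeq2 (0.0561), with every gene with at least 1 count kept (0.208), or without SD 12:00 replicate 2 or LD 12:00 replicate 1 (up to 0.0606). *OsCOP1* did not pass with the replicate block (0.0556) or with every gene with at least 1 count kept (0.0734). *OsCOP1* and *OsPIL16* also did not pass with some of the libraries left out, as given above. Of all genes tested, 48.5% passed this test, and the number of members that passed was near this share.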

How the results depend on the processing

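The counts of members called changed by more than 1.5 times, or from or to 0, as follows, and the cause was not tested. With SD against LD, 00:00 gave 1 member with DESeq2, 2 in one fit of the 24 libraries and 2 with the replicate block, against 0, 20:00 gave 1 in the 24-library fit, against 0, and 08:00 gave 1 with library totals, against 3. Light against dark in SD gave 0 with library totals and 0 when every gene with at least 1 count was kept, against 1. Dropping the fold threshold admits smaller differences by construction. The counts were then 4 at 12:00, 7 at 04:00 and 6 averaged over the day, against 62.5%, 30.2% and 58.4% of all genes. They were 3 and 5 for light against dark in SD and LD, against 29.4% and 23.5% of all genes, and 14 for steps. Between 0.0235% and 22.6% of all genes passed without a fold threshold in a single step. Leaving out each library gave 0 to 2 members at 08:00, 1 to 2 at 12:00, 0 to 0 at 16:00 and at 20:00, 0 to 2 at 00:00, 0 to 4 at 04:00, 1 to 2 averaged, 2 to 7 for the interaction, 2 to 4 and 5 to 9 for time of day in SD and LD, 0 to 2 and 1 to 1 for light against dark in SD and LD, and 5 to 10 steps. Where this left 1 library in a group, it was assumed to vary like the others. Apart from the counts without a fold threshold, shares of all genes are not given for these settings. A change in the members called is therefore not set against a change in all genes.

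No called value of a single member changed direction. In the other settings, 1556 values were counted as the same, 43 newly passed and 19 no longer passed. The 1556 hold single members on the same side of the threshold and correlations between members that moved little. On leaving out a library the numbers, for single members only, were 3958, 42 and 104. The replicate deviations of same-numbered SD and LD libraries had correlations between −0.289 at 08:00 and 0.306 at 16:00. With so few libraries, these values cannot show whether or not the replicates were paired. The crossed block at 08:00 and 20:00, where the correlation was below −0.1, left 3 and 0 members called. Scaling by library totals shifted the median log2 fold change of all genes by 0.27 at 12:00, 0.18 at 04:00, 0.17 at 00:00 and 0.13 at 08:00, and the share of called genes that were higher in SD from 50.9% to 63.3% at 12:00 and from 25.9% to 42.3% at 04:00. Depth limits *OsbZIP48*, *OsPIL11* and *OsPIL12* most, with as few as 3, 4 and 8 counts in a library.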
